A study of Mus musculus with 6 samples.

Results

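The genes described here are 9 mouse genes of transcriptional repression: the corepressors Spen, Lcor, Ncor1, Sin3a, Sin3b and Bcor and the nuclear kinases Hipk1, Hipk2 and Hipk3. They are 9 of the 24559 genes in the expression table, and all 9 were among the 14922 genes that passed a minimum of 10 normalized reads in at least 3 libraries. The genes were chosen by their symbols after Lcor, Spen and Hipk2 had been seen among the strongest decreases of the comparison described below. Their differences between the groups are therefore given as a description, with no test. RNA was sequenced from primary cultures of CD8+ T cells from the spleen of wild-type C57 BL/6 mice. In 3 libraries the cells had received L-4F (a mimetic peptide of apolipoprotein A1, ApoA1, the chief HDL protein), and in 3 they had received the ABCT buffer as control. Both groups share strain, tissue and culture and differ by the agent alone in the labels, which name neither a dose nor a duration. The series title places the comparison in a study of low serum ApoA1, HIF-1α and glycolysis.

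Corepressors are proteins that are mostly brought to genes by transcription factors, where they recruit histone deacetylases and other chromatin enzymes. NCoR1 serves unliganded nuclear receptors, SPEN serves RBPJ in the absence of Notch signalling and is required for Xist-mediated silencing, LCOR binds nuclear receptors together with CTBP proteins, SIN3A and SIN3B are alternative scaffolds of the SIN3 histone deacetylase complex, and BCOR carries BCL6 repression and is a subunit of a variant Polycomb complex. The homeodomain-interacting protein kinases (HIPKs) are nuclear serine/threonine kinases that phosphorylate transcription factors, corepressors and p53. In CD8+ T cells several of these proteins act with nuclear receptors, Notch and BCL6, which shape activation and memory.

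The libraries held 25073292 to 31332003 reads, with 5.05% to 5.52% of them in the top 10 genes. Gene counts differed more between groups than within them: the median squared difference, relative to counting noise, was 2.18 to 2.71 for pairs of the same group and 7.54 to 8.93 for pairs of different groups. Separate mice or cultures per library are not stated in the labels, and p-values thus cover the variation among these samples alone, which may be technical. Across all 14922 genes 2747 rose and 2947 fell with L-4F (limma, adjusted p under 0.05), which is 18.4% and 19.7%. Centring each library on its median moved this split to 2161 and 3630. The summed CPM (reads scaled to the library total) of 6 T cell markers, among them Cd8a and Cd8b1, was 2719.5 to 2726.9 with buffer and 3069 to 3141 with L-4F. Summed CPM was 7.90 to 8.23 and 7.42 to 8.97 for 3 CD4 T cell markers, 8.0015 to 8.9365 and 10.968 to 11.982 for 4 B cell markers, 52.3 to 61.3 and 54.1 to 56.1 for 5 myeloid markers and 235 to 247 and 242 to 253 for 4 NK markers. Most of the NK sum was Eomes (215.7 to 229.25 CPM), while Klrb1c had 14.5 to 18.4, Ncr1 1.66 to 3.23 and Klra8 0.758 to 1.73. The CD4 T cell sum hid opposite moves of its genes. Cd4 had 1.62 to 1.79 CPM with buffer and 0.863 to 1.16 with L-4F. Foxp3 had 4.65 to 5.11 and 5.22 to 7.09, and the groups of Cd40lg overlapped. No marker was at 0 in every library. The part of the T cell, CD4 T cell and B cell marker differences in the results below was not tested.

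Lcor, Hipk2 and Spen had the lowest values relative to buffer among the 9 genes, each near or below 55% of the buffer level. Lcor, the ligand-dependent corepressor, had 1370, 1448 and 1389 normalized reads in the buffer libraries and 613, 724 and 743 in the L-4F libraries. The groups did not overlap, and the first L-4F library lay below the other two. The means were 1402 ± 40.6 and 693 ± 70.3 (SD, n = 3 each), a log2 difference of -1.02, or 2.03-fold lower with L-4F. Without L-4F replicate 1 the log2 difference was -0.93. Hipk2, the family member best known for phosphorylating p53, had 1033, 1008 and 1026 normalized reads with buffer and 567, 534 and 546 with L-4F. All L-4F libraries lay far below all buffer libraries, at 1022 ± 12.6 and 549 ± 16.6 (SD, n = 3), a log2 difference of -0.90. Spen, the large RNA-binding corepressor, had 5313, 5055 and 5153 normalized reads with buffer and 2818, 2800 and 2970 with L-4F. Its groups were also apart, at 5174 ± 130 and 2862 ± 93.8 (SD, n = 3), a log2 difference of -0.85, or 1.81-fold lower. Ordered from the lowest log2 difference, Lcor was at rank 201, Hipk2 at rank 284 and Spen at rank 317 of the 14922 tested genes. In RNA from a whole culture, fewer cells of a type and less RNA per cell cannot be told apart.

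**Figure D1:**
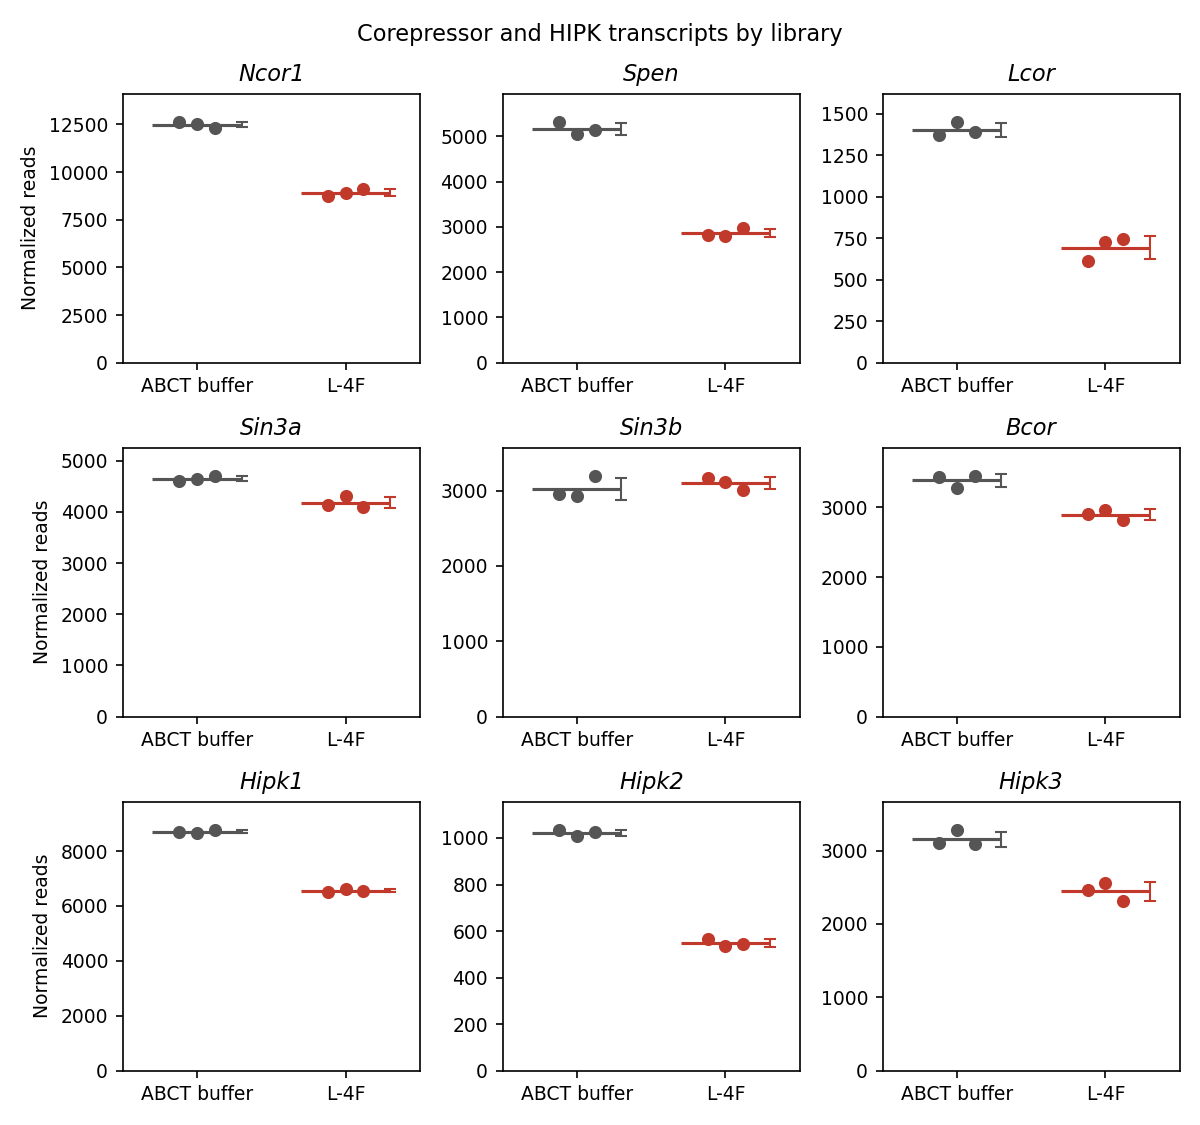
Normalized reads of each of the 9 genes in the 3 buffer and 3 L-4F libraries, one panel per gene with its own axis from 0; points are libraries and lines are group means with SD. The L-4F points lie below all buffer points in 8 panels, and in the Sin3b panel the groups overlap.

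The promoter windows of Spen, Lcor and Hipk2 are shown because these genes had the lowest values and their windows held the most CpG dinucleotides of the 9 genes. Each window runs from 250 bases before to 50 bases after the outermost annotated start (RefSeq, GRCm38.p6). It is written 5′ to 3′ on the gene's strand, and capitals mark GGGCGG (the GC box), CCAAT and ACGTG on either strand. ACGTG is a form of the core of a HIF-1 element, and other forms of that core were not searched. The Spen window is chr4:141538548-141538847 (minus strand), the Lcor window chr19:41482432-41482731 (plus strand) and the Hipk2 window chr6:38876141-38876440 (minus strand).
Spen: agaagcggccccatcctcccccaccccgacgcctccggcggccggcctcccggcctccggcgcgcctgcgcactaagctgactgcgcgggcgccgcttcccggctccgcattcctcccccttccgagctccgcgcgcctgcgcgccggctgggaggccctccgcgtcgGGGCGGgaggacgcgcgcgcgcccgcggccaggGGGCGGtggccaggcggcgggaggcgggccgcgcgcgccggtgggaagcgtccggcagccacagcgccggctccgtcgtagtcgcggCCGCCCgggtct
Lcor: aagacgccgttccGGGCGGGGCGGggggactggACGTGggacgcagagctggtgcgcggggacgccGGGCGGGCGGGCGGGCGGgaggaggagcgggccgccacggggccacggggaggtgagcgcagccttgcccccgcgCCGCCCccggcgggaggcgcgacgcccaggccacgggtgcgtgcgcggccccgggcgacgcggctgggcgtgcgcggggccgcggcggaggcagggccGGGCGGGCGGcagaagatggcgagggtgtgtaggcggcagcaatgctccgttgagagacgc
Hipk2: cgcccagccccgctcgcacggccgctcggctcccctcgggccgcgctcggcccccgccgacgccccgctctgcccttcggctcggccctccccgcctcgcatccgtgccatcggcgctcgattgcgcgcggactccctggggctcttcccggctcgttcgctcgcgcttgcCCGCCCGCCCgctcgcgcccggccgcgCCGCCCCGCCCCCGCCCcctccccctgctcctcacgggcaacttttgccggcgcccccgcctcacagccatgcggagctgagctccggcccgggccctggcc
Spen had 54 CpG in its window, Lcor 49 and Hipk2 48, against a median of 7 over all 32851 RefSeq windows of the same length, and their GC content was 81.67%, 81% and 80.67%. The other outermost windows held 42 CpG (Hipk3), 36 (Ncor1), 21 (Bcor), 14 (Sin3a), 14 (Sin3b) and 12 (Hipk1). Where a second start was annotated, its window held 1 CpG in Hipk2, 31 in Hipk1, 25 in Sin3a, 21 in Bcor and 2 in Ncor1. GGGCGG was found 3 times in the Spen window, 9 times in the Lcor window and 5 times in the Hipk2 window, counting overlaps, and 35.66% of all windows held it at least once. All 9 genes matched the promoter table, with 14 windows in all. GGGCGG was in 8 of these, CCAAT in 3 (37.41% of all windows), ACGTG in 2 (19.62%) and the E-box CACGTG in 0 (7.15%), and a match of letters is not a bound site. Over other tested genes, chosen for this comparison after the windows were seen, the 208 with 48 or more CpG had a median log2 difference of -0.09 and 40.87% of them fell, against -0.0014 and 21.23% of the 9906 with fewer. The former had longer transcripts, with a median of 4601 nt against 3258 nt. Once the trend with transcript length, described below, was removed, the median log2 differences were -0.01 and 0.0081. The shares that fell were not computed with that trend removed.

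Ncor1, the scaffold of the NCoR complex, was the most abundant of the 9 genes, and its difference was smaller than those of Lcor and Spen. It had 12613, 12545 and 12327 normalized reads with buffer and 8772, 8902 and 9112 with L-4F. No L-4F library reached a buffer library, and the means were 12495 ± 150 and 8929 ± 172 (SD, n = 3), a log2 difference of -0.48, or 1.40-fold lower.

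The paired SIN3 scaffolds did not move alike. Sin3a had 4601, 4654 and 4697 normalized reads with buffer and 4136, 4304 and 4098 with L-4F. These groups were apart by a small margin, with a log2 difference of -0.15. Sin3b had 2951, 2933 and 3190 normalized reads with buffer and 3171, 3121 and 3015 with L-4F. Its groups overlapped, at 3025 ± 144 and 3103 ± 79.9 (SD, n = 3), and the log2 difference of 0.04 turned to -0.0030 when libraries were centred on their medians. Bcor, the BCL6 corepressor, had 3438, 3281 and 3442 normalized reads with buffer and 2907, 2966 and 2812 with L-4F. The Bcor groups did not overlap, and the log2 difference was -0.23.

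Among the HIPK genes, Hipk1 and Hipk3 were lower by less than Hipk2. Hipk1 had 8697, 8654 and 8756 normalized reads with buffer and 6516, 6614 and 6555 with L-4F. Both groups were tight and well apart, at 8702 ± 51.2 and 6562 ± 49.6 (SD, n = 3), a log2 difference of -0.41. Hipk3 had 3102, 3276 and 3092 normalized reads with buffer and 2459, 2562 and 2311 with L-4F. These did not overlap either, and the log2 difference was -0.37.

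In 8 of the 9 genes, all but Sin3b, every L-4F library lay below every buffer library, which held for 24.4% of all tested genes. The genes were selected on this contrast, so nothing is read from this count. The median log2 difference of the 9 genes was -0.41, beside 0.00 over all tested genes.

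Levels between genes were compared per length, as CPM per kilobase of the longest annotated transcript. With buffer the order was Ncor1 (50.2 ± 0.434), Hipk1 (39.8 ± 0.355), Sin3a (32.4 ± 0.435), Sin3b (26.7 ± 1.36), Bcor (17.7 ± 0.507), Hipk3 (15.4 ± 0.484), Spen (15.3 ± 0.373), Lcor (10.5 ± 0.3005) and Hipk2 (4.83 ± 0.0634; SD, n = 3 for each level). The libraries of Hipk3 and Spen overlapped, and no other neighbours in this order did. With L-4F the order was the same, and the levels were 35.4 ± 0.813 for Ncor1, 29.6 ± 0.186 for Hipk1, 28.8 ± 0.619 for Sin3a, 27.0 ± 0.609 for Sin3b, 15.0 ± 0.326 for Bcor, 11.8 ± 0.549 for Hipk3, 8.35 ± 0.314 for Spen, 5.15 ± 0.527 for Lcor and 2.56 ± 0.0825 for Hipk2 (SD, n = 3). There Spen lay apart from Hipk3, while Hipk1 and Sin3a overlapped.

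Ratios of 2 genes within a library do not depend on the scaling of that library. The log2 ratio of Hipk2 to Hipk1 was -3.09 ± 0.014 with buffer and -3.58 ± 0.054 with L-4F (SD, n = 3), and the groups did not overlap. The log2 ratio of Hipk3 to Hipk1 was -1.46 ± 0.054 and -1.43 ± 0.070, and the groups overlapped. As a share of the 3 HIPK genes per kilobase, Hipk2 was 8.05% ± 0.135 with buffer and 5.83% ± 0.230 with L-4F, while Hipk1 was 66.3% ± 0.611 and 67.4% ± 0.864 (SD, n = 3). The log2 ratio of Sin3a to Sin3b was 0.62 ± 0.057 and 0.43 ± 0.042 and that of Lcor to its paralog Lcorl 1.22 ± 0.12 and 0.70 ± 0.26, in both cases without overlap. Spen against its relative Rbm15 stood at 0.97 ± 0.030 and 0.34 ± 0.057. Such ratios are not free of the trend with transcript length described below. Spen has 12299 nt and Rbm15 5967 nt, and with that trend removed their log2 differences were -0.47 and -0.06. Bcor against Bcorl1 overlapped between the groups.

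**Figure D2:**
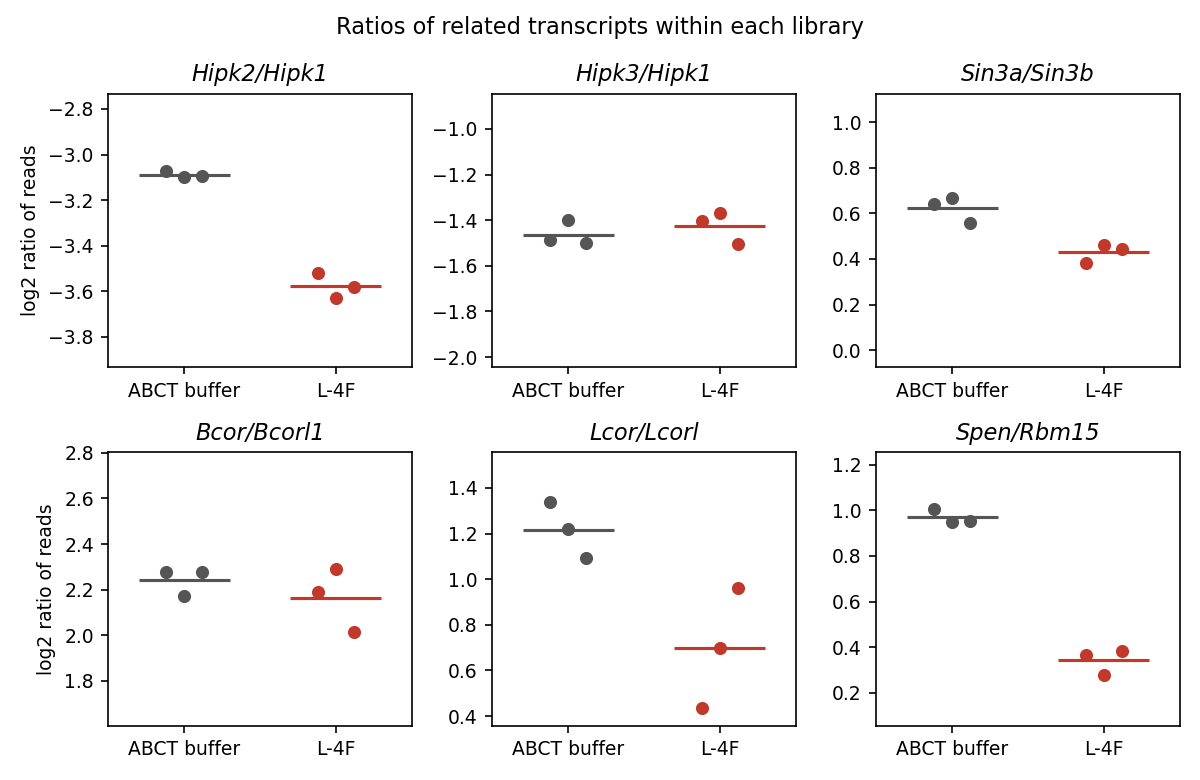
Log2 ratio of gene pairs within each library, with points for the 3 buffer and 3 L-4F libraries and lines for group means; every panel has an axis of the same span. The Hipk2 to Hipk1 ratio moves from -3.09 to -3.58 without overlap, and the Hipk3 to Hipk1 points of the groups overlap.

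Most of the 9 genes have long transcripts, and in these libraries the difference with L-4F moved with transcript length. Across 14910 tested genes with a length, the rank correlation of log2 difference and longest annotated transcript was -0.453, which is across genes and not across replicates. In the longest of 10 equal groups of genes by length (6327 nt or more) the median log2 difference was -0.28, and 63.7% of genes fell. This group holds Spen (12299 nt), Ncor1 (9037 nt), Hipk1 (7939 nt), Hipk2 (7684 nt), Hipk3 (7454 nt) and Bcor (6941 nt). Sin3a (5206 nt) lies in the next group, with a median of -0.15. Lcor (4833 nt) and Sin3b (4115 nt) lie in the group of 4101 to 4847 nt, whose median was -0.08. Lcor thus had a difference of -1.02 among genes of similar longest transcript whose median was -0.08. The place of Lcor depends on the measure of length. Summed over exons Lcor has 7913 nt and Sin3b 7354 nt, beside 7987 nt in Hipk3. The long transcripts are built differently: the coding part of the longest coding transcript is 10929 nt in Spen and 1299 nt in Lcor. The 3′ untranslated parts are 3377 to 4136 nt in the HIPK genes and 2984 nt in Lcor. In Spen, Ncor1, Sin3a, Sin3b and Bcor they are 799 to 1420 nt.

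**Figure D3:**
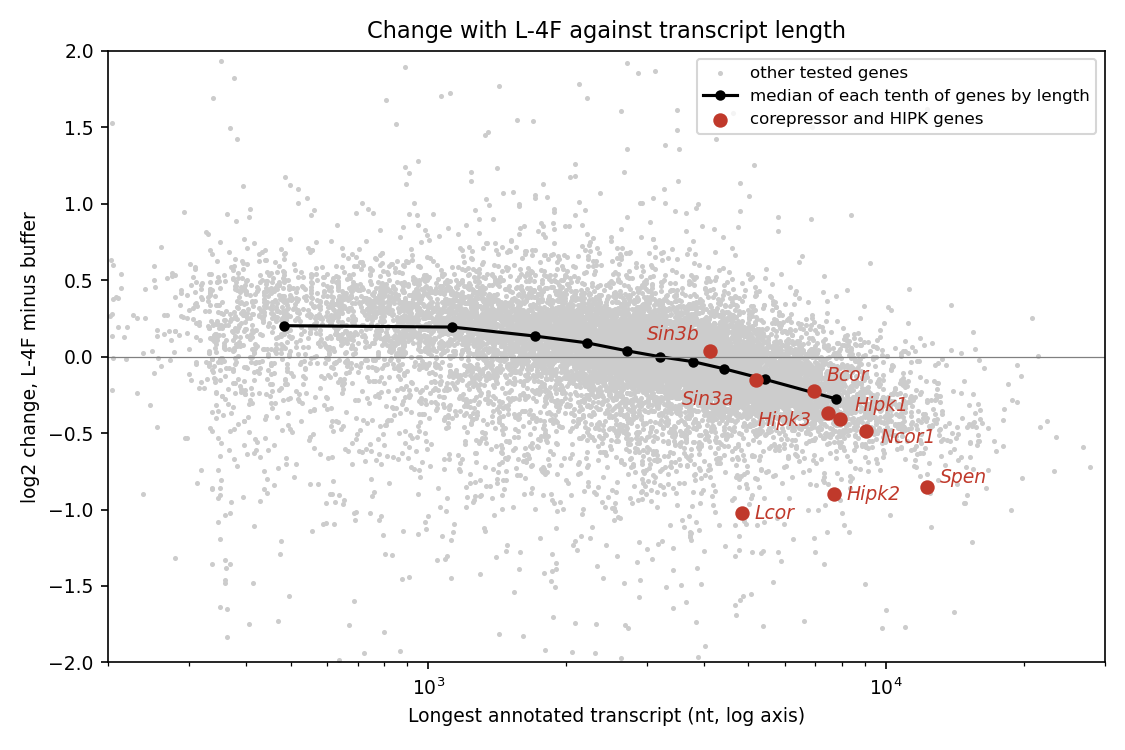
Log2 difference (L-4F minus buffer) against the longest annotated transcript (nt, log axis) for tested genes, with the median of each of 10 equal groups by length as a line and the 9 genes in red; 213 of the 14910 genes lie outside the plotted range. Sin3a and Bcor lie near the line, and Lcor, Hipk2 and Spen lie well under it.

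With the trend on transcript length removed, the log2 differences were -0.92 for Lcor, -0.65 for Hipk2, -0.47 for Spen, -0.19 for Ncor1, -0.15 for Hipk1, -0.13 for Hipk3, -0.03 for Sin3a, -0.01 for Bcor and 0.09 for Sin3b. The order of Lcor, Hipk2 and Spen did not change, at ranks 314, 634 and 1075 of 14922. The median of the 9 was -0.15. Removing a trend on summed exon length instead gave a median of -0.24, with Lcor at -0.89, Sin3a at -0.11, Bcor at -0.08 and Sin3b at 0.15. What the length trend comes from was not tested.

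**Figure D4:**
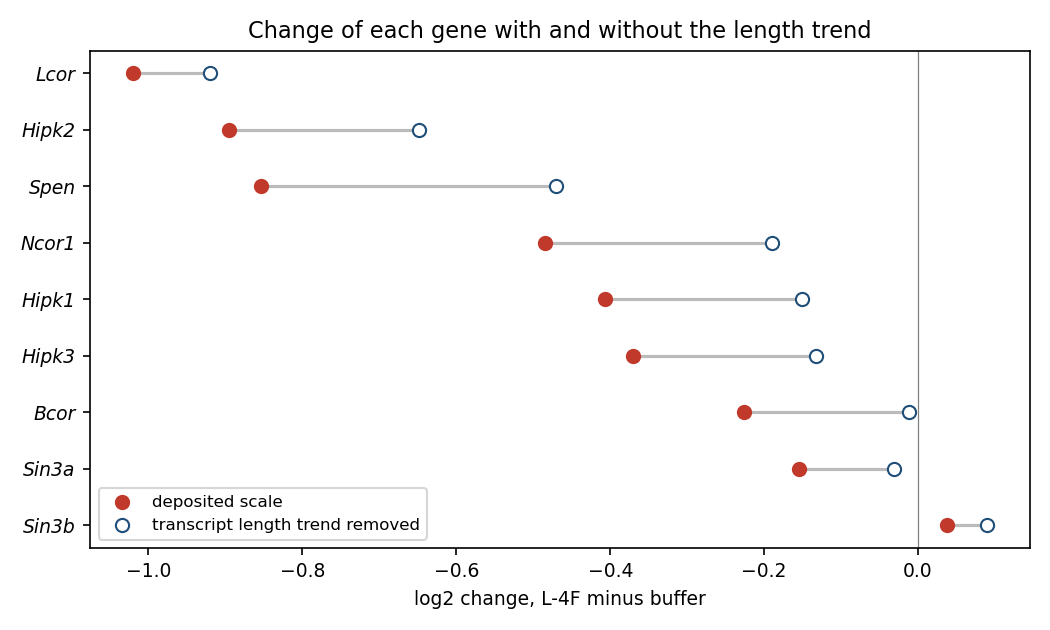
Log2 difference (L-4F minus buffer) of each gene as measured and with the trend on transcript length removed. Lcor moves least among the lower genes (-1.02 to -0.92), and Sin3a and Bcor come to -0.03 and -0.01.

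Several of the genes overlap a gene on the other strand. Exons of Spen overlap those of Zbtb17, exons of Ncor1 those of Ttc19 and Pigl, and exons of Sin3a those of Man2c1os, and Hipk3 holds Mir1902 on its own strand. The libraries were made with a stranded kit, but no source used here states whether counting used the strand. The log2 differences of these partners were 0.06 (Zbtb17), -0.11 (Ttc19), -0.07 (Pigl) and -0.57 (Man2c1os, at 29.6 normalized reads with buffer), and none of them passed the test. On GRCm38 (GENCODE M21), Lcor (ENSMUSG00000025019) spans chr19:41482637-41562261 on the plus strand in 8 exons. Spen (ENSMUSG00000040761) spans chr4:141467890-141538597 on the minus strand in 16 exons, and Hipk2 (ENSMUSG00000061436) chr6:38694390-38876165 on the minus strand in 15. Of the rest, Ncor1 (ENSMUSG00000018501) lies at chr11:62316426-62458541, Bcor (ENSMUSG00000040363) at chrX:12036740-12160355, Hipk1 (ENSMUSG00000008730) at chr3:103739815-103791563 and Hipk3 (ENSMUSG00000027177) at chr2:104426481-104494446, all on the minus strand. Sin3a (ENSMUSG00000042557) lies at chr9:57072040-57128366 and Sin3b (ENSMUSG00000031622) at chr8:72723285-72758201, both on the plus strand.

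By the root mean square difference of centred log2 values over the 6 libraries, the genes most like Spen among 8509 candidates outside the 9 genes were Kmt2a (0.0188), Kmt2d (0.0370) and Gprin3 (0.0485). KMT2A and KMT2D are histone H3 lysine 4 methyltransferases. Hipk2 was nearest to Kmt2a (0.0453), Kmt2d (0.0560) and Lad1 (0.0591). Between Spen and Hipk2 themselves the difference was 0.0448, which would place Hipk2 before Gprin3 for Spen and Spen before Kmt2a for Hipk2. Lcor was nearest to Gprin3 (0.103), Lad1 (0.108) and Pdpr (0.110), distances larger than those of Spen and Hipk2. The group difference, which enters this measure, was -0.86 for Kmt2a, -0.79 for Kmt2d, -0.86 for Gprin3, -0.90 for Lad1 and -0.83 for Pdpr on the log2 scale. With the length trend removed it was -0.40 for Kmt2a (16470 nt), -0.29 for Kmt2d (19823 nt), -0.59 for Gprin3 (8339 nt), -0.92 for Lad1 (2993 nt) and -0.73 for Pdpr (4938 nt).

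The genes that work with the 9 were examined as 9 lists with 139 genes, of which 137 were tested. Of these 17 rose, 49 fell and 71 did not pass (limma, adjusted p under 0.05 over all tested genes), beside 18.4% and 19.7% of all tested genes. Their median log2 change was -0.09. With the length trend removed 15 rose and 29 fell, beside 13.5% and 12.9% of all genes; 24 fell and 10 rose in both fits.

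Of 6 partners in the NCoR complex 3 fell and 0 rose by limma (1 at an unadjusted p under 0.05 and 0 by limma-voom), with a list median of -0.05. Tbl1x, a WD40 subunit, fell by 0.24 on the log2 scale (adjusted p = 1.46e-05). Coro2a fell by 0.12 (adjusted p = 0.00646), a call lost with the length trend removed and without buffer replicate 1 (-0.08, adjusted p = 0.0737). The catalytic subunit Hdac3 had a log2 difference of 0.03 (adjusted p = 0.589) and Gps2 of 0.02 (adjusted p = 0.801), and neither passed. Once the length trend was removed 1 of the 6 rose and 3 fell. Gps2 then passed as lower, at -0.15 (adjusted p = 0.0241), and Tbl1xr1 as higher, at 0.35 (adjusted p = 2.1e-07). In the first fit Tbl1xr1 had 0.08 (adjusted p = 0.106) and did not pass.

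The 19 SIN3 partners divided, with 7 higher and 5 lower and a median of 0.07. The shared histone deacetylases rose, Hdac1 by 0.19 (adjusted p = 9.56e-06) and Hdac2 by 0.22 (adjusted p = 6.01e-05) on the log2 scale, as did the histone-binding subunit Rbbp4 (0.15) and Sap18 (0.18). The members that fell were the ARID proteins Arid4b (-0.38, adjusted p = 1.01e-07) and Arid4a (-0.34, adjusted p = 2.28e-07), the demethylase Kdm5a (-0.29, adjusted p = 2.77e-07), Phf12 (-0.29, adjusted p = 1.59e-06) and Sap130 (-0.32). Kdm5a turned to 0.06 with the length trend removed and did not pass, and Arid4b lost its call when a trend on exon length was removed instead (-0.074, adjusted p = 0.163).

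Among 10 partners of BCOR and its Polycomb complex 3 rose and 3 fell, with a median of -0.07. Skp1 rose by 0.32 (adjusted p = 3.52e-08) and the DNA-binding demethylase Kdm2b fell by 0.48 (adjusted p = 4.65e-08) on the log2 scale. Pcgf1 (0.28, adjusted p = 0.0406) and Ring1 (0.21, adjusted p = 0.0226) also rose, with calls that were lost when some single libraries were left out. Pcgf1 lost its call without any one library other than L-4F replicate 2 (0.23 to 0.31), and Ring1 without buffer replicate 2, L-4F replicate 1 or L-4F replicate 3 (0.18 to 0.20). Rybp fell by 0.17 (adjusted p = 0.0152), a call lost without buffer replicate 2 (-0.14) or L-4F replicate 2 (-0.15). Usp7 fell by 0.09 (adjusted p = 0.00948), a call lost without buffer replicate 1 (-0.08). Once the length trend was removed 1 of the 10 rose and 1 fell, and Pcgf1 (0.07), Ring1 (0.15), Rybp (-0.09) and Usp7 (0.0070) did not pass. Bcl6, the repressor that brings BCOR to DNA, had -0.26 (adjusted p = 0.173), and Bcorl1 -0.15 (adjusted p = 0.0845, past the threshold at -0.20 without L-4F replicate 3).

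Of 13 tested genes among SPEN relatives and the Notch pathway 6 fell and 0 rose by limma (0 also at an unadjusted p under 0.05 and by limma-voom), with a median of -0.23. The receptor Notch1 went from 7585 ± 172 to 5673 ± 78.1 normalized reads (SD, n = 3), a log2 change of -0.42 (limma adjusted p = 5.6e-11). The receptor Notch2 fell by 0.38 (adjusted p = 4.79e-09). The DNA-binding factor Rbpj fell by 0.22 (adjusted p = 6.75e-06) and the SPEN relative Rbm15 by 0.23 (adjusted p = 3.45e-05). Rbpj changed direction, to 0.02, with a trend on exon length removed. The list's median transcript is 5528 nt, and of all tested genes of 4847 to 6326 nt 43.9% fell. With the length trend removed Notch1 stood at -0.11 and still passed, while Notch2 (-0.04) and Rbm15 (-0.06) did not. In that fit 1 of the 13 rose and 3 fell. The one that rose was the SPEN relative Rbm15b, at 0.13 (adjusted p = 0.00591), beside -0.06 (adjusted p = 0.201) in the first fit.

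Of 12 genes around LCOR (its paralog, the CTBP corepressors and PRC2) 2 rose and 5 fell, with a median of -0.01. Lcorl went from 604 ± 56.8 to 427 ± 39.8 normalized reads (SD, n = 3), a log2 change of -0.50 (limma adjusted p = 6.45e-05). The PRC2 accessory protein Jarid2 fell by 0.22 (adjusted p = 0.00262), while Phf1 rose by 0.19 (adjusted p = 0.00255) and the corepressor Ctbp1 by 0.07 (adjusted p = 0.044). The Ctbp1 call was lost without any one of the 6 libraries (0.06 to 0.08). Jarid2 turned to 0.05 with the length trend removed and did not pass, and Lcorl lost its call when a trend on exon length was removed (-0.18, adjusted p = 0.135). Of 20 tested nuclear receptors 4 fell and 0 rose by limma (1 at an unadjusted p under 0.05 and 0 by limma-voom), with a median of -0.10. Of all tested genes 19.7% fell and 18.4% rose. The 4 receptors that fell were Nr2c2 (-0.43, adjusted p = 1.09e-09), the glucocorticoid receptor Nr3c1 (-0.15, adjusted p = 0.000446), Nr1d2 (-0.23, adjusted p = 0.00325) and Rora (-0.29, adjusted p = 0.00681). Nr2c2 kept its call with the length trend removed, while Nr3c1 (0.04), Rora (0.06) and Nr1d2 (-0.14, adjusted p = 0.0803) did not pass.

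Of 27 other corepressor and NuRD genes 2 rose and 14 fell, with a median of -0.15, and their median transcript is 4369 nt long. The NuRD remodeller Chd4 fell by 0.25 on the log2 scale (adjusted p = 1.46e-09), the nuclear receptor corepressor Nrip1 by 0.50 (adjusted p = 6.49e-08), Skil by 0.29 (adjusted p = 1.87e-07) and Rcor1 by 0.32 (adjusted p = 3.36e-06), and Tle5 (0.19) and Mbd2 (0.13) rose. With the length trend removed 7 of the 27 fell, and Chd4 (-0.05) and Mbd2 (0.01) did not pass.

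Of 16 relatives and regulators of the HIPKs 1 rose and 5 fell, with a median of -0.05. The acetyltransferase Ep300, a HIPK2 substrate, went from 5077 ± 141 to 3134 ± 139 normalized reads (SD, n = 3), a log2 change of -0.70 (limma adjusted p = 1.28e-12) and -0.38 with the length trend removed. The related kinases Prpf4b (-0.28, adjusted p = 1.97e-06) and Dyrk2 (-0.22, adjusted p = 7.52e-05) fell, and neither passed with the length trend removed (-0.03 and -0.05). Dyrk4 rose, from 79.8 ± 7.28 to 129 ± 9.49 normalized reads (SD, n = 3), a log2 change of 0.69 (limma adjusted p = 0.000901). Hipk4, the fourth family member, stood at 18.1 ± 8.82 and 23.5 ± 6.85 normalized reads (SD, n = 3), a log2 difference of 0.42 that did not pass (limma adjusted p = 0.412). Trp53, which encodes p53, fell by 0.08 (adjusted p = 0.0337), a call lost without buffer replicate 1 or 2 or L-4F replicate 1 or 2 (-0.08 to -0.06). Of 14 p53 target genes 2 rose and 4 fell, with a median of -0.04. Bax (0.19, adjusted p = 0.000138) and Fas (0.19, adjusted p = 0.0104), both proapoptotic, rose, and Fas lost its call without L-4F replicate 1 (0.15). Zmat3 (-0.26, adjusted p = 9.11e-07), Trp53inp1 (-0.17, adjusted p = 0.000525), Ccng1 (-0.11, adjusted p = 0.000537) and Mdm2 (-0.13) fell. The cell cycle inhibitor Cdkn1a had -0.06 (adjusted p = 0.0934). With the length trend removed Bax (-0.01), Fas (0.05), Zmat3 (-0.01) and Trp53inp1 (-0.03) did not pass, and Cdkn1a passed as lower, at -0.16 (adjusted p = 8.0e-05).

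**Figure D5:**
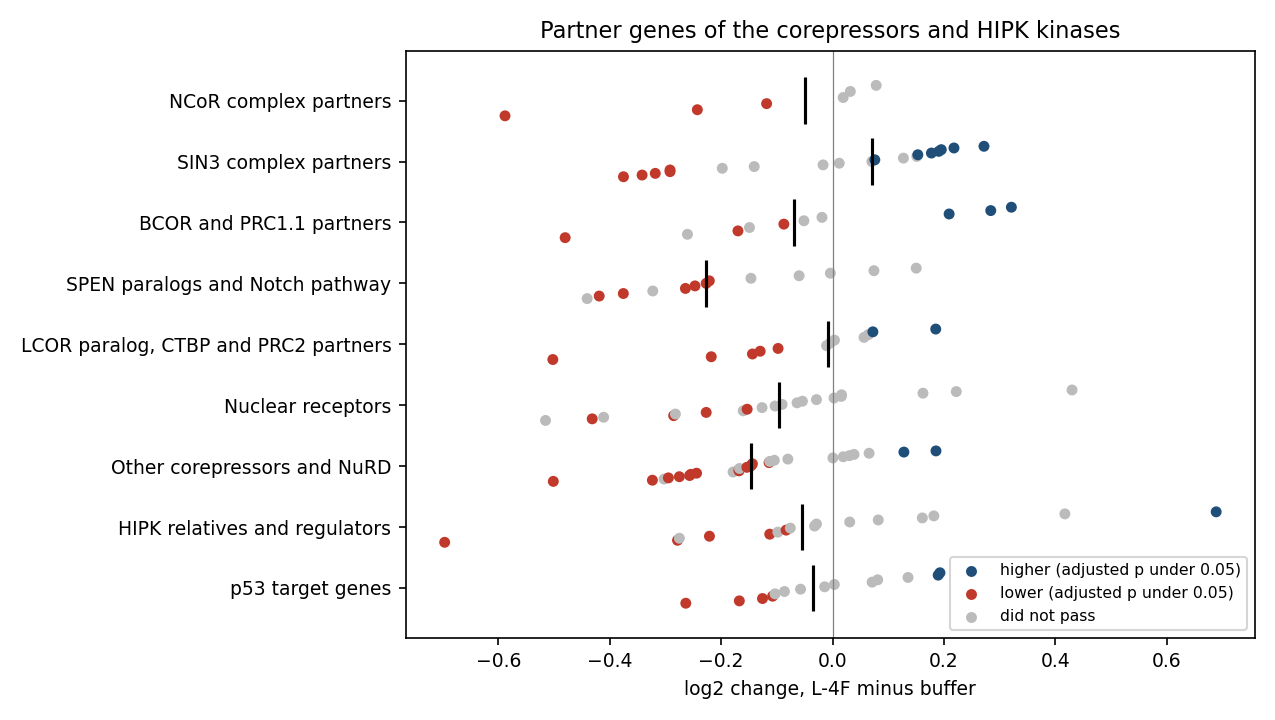
Log2 change (L-4F minus buffer) of each tested partner gene by list, coloured by whether it rose, fell or did not pass at an adjusted p under 0.05, with a black bar at the list's median. The Notch list has the lowest median here (-0.23) and the SIN3 list the highest (0.07); with the length trend removed these were -0.06 and -0.0096, and the order of the lists differed.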

How the data were processed

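RNA-seq values of 6 libraries, 3 per group by title, were analysed. Per the submitters' processing notes FastQC (0.11.2 and 0.11.5) and StringTie (1.3.1c) were used; the aligner, build and annotation are unstated in these sources. The values the authors deposited are log2 of normalized reads plus 1. Dividing out one factor per library gave whole reads for 100% of values within 0.01 read, and these factors equal median-of-ratios factors. The authors also deposited group means, log2 fold changes, p-values and FDR, which were not used for any result. Genes with 10 or more normalized reads in 3 libraries were fitted with limma 3.58.1 (R 4.3.3, statmod 1.5.0; trended, robust spread), and p-values were adjusted by Benjamini-Hochberg over 14922 genes. The pseudocount of 1 makes fold changes of low genes too small. Lengths come from GENCODE M21, whose annotation may differ from the authors'; trends used a loess span of 0.3. The 9 genes and all lists were chosen with earlier results of these data known. Named partners were up to 4 genes per list that passed with the lowest adjusted p, plus paralogs, and the 3 genes of at least 10 CPM most like Lcor, Spen and Hipk2; others were named after their values were seen. The alternatives were other scalings, filters, pseudocounts, limma-voom on recovered reads, length and GC trends and leaving out each library. Scripts were tested on simulated data. A count of 3 reads in a library correspond to 0.0957 to 0.120 CPM. Results of some single genes in the lists are not reported here, and these genes remain in the lists' counts, sums and medians.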

Additional observations from a re-analysis of the deposited data

How the results depend on the processing

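Removing the transcript length trend moved more results than the other settings run. It left 1921 tested genes and 29 partner genes lower, and brought the median of the 9 genes to -0.15. A trend on exon length gave that median as -0.24, and median centring -0.45. Without the trended robust spread, 10 partner genes rose. Among the partner genes named by the stated rule, those that changed direction with the transcript length trend removed were Kdm5a at 0.060, Usp7 at 0.0070, Aebp2 at 0.035, Jarid2 at 0.054, Nr3c1 at 0.038, Rora at 0.065, Bax at -0.0064, Bcorl1 at 0.088 and Rbm15b at 0.13; with the exon length trend removed, Usp7 at 0.036, Rbpj at 0.015, Aebp2 at 0.044 and Rbm15b at 0.026. Of the other partner genes that had passed, Trim33 (0.046), Gatad2b (0.069), Ski (0.027) and Rbbp7 (-0.0096) also turned with the transcript length trend removed. The cause was not tested. Leaving out each library gave 2361 to 2545 genes higher and 2444 to 2829 lower, partner counts of 13 to 16 and 44 to 53, and medians of the 9 genes from -0.413 to -0.402. Libraries share only a replicate number: same-numbered libraries correlated at 0.051, 0.011 and 0.109, and L-4F replicate 2 was nearer to buffer replicate 1 (0.030). A fit with a replicate block gave 2655 higher and 2866 lower, and 15 and 48 among partner genes. The number of libraries limits precision: with 3 per group, several partner calls were lost when a single library was left out. The 9 genes had at least 534 normalized reads in every library.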
